A study of Rattus norvegicus with 4 samples.

Results

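The genes described here encode the ligand-gated channels, the calcium and sodium channels and the remaining channels of the plasma membrane that were listed for the rat choroid plexus and kidney proximal tubule. They are 36 of the 107 channel genes in the study's lists of transcribed channels, out of 32883 gene IDs in each library. The lists hold K+ channels, aquaporins, TRP channels, CLC anion channels and connexins as well, and the 36 genes are those whose names begin with none of the 12 prefixes of these groups, whatever their level. The list for male choroid plexus holds 30 of them, the list for sorted epithelial cells adds SCNN1A and PANX1, and the list for proximal tubule adds GABRP, CFTR, GRIK2 and HCN3. The study's lists were cut at 0.5 TPM, so the number of these genes above 0.5 TPM in those 3 libraries was fixed by the choice of genes and is no finding.

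All libraries came from Sprague Dawley rats of 9 weeks, and the labels name neither a transgene nor a treatment. The male choroid plexus library pooled tissue of 5 male rats, and the female choroid plexus library pooled tissue of 5 female rats. The FACS library pooled cells from the choroid plexus of 10 male rats, digested with collagenase and sorted with an antibody against the cotransporter NKCC1. The proximal tubule library pooled kidney tubules of 5 male rats, hand-picked after digestion with collagenase and pronase. For the whole choroid plexus the methods name no digestion. With 1 library per condition there was no replicate check, no test between conditions was possible, and the 95% intervals below cover counting error only. Levels are given in TPM, the number of transcripts of a gene per 1000000 transcripts, which takes gene length into account.

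The choroid plexus is an epithelium around a vascular core that secretes the cerebrospinal fluid. Its ion transport is carried by transporters, pumps and channels, and the genes here range from channels of neurons and muscle to epithelial channels such as SCNN1A, CFTR and ANO1. Orai channels let Ca2+ into the cell when the stores of the endoplasmic reticulum are emptied. P2X receptors are cation channels opened by ATP, and ionotropic glutamate, GABA(A) and nicotinic receptors are opened by neurotransmitters. Voltage-gated Ca2+ channels and HCN channels respond to the membrane potential, Piezo channels respond to membrane tension, and pannexins form large pores that release ATP.

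Expected counts, the number of fragments assigned to a gene, summed to between 23873318 and 28324976 per library. In the proximal tubule library 70.7% of the counts came from the 13 mitochondrially encoded genes, against 4.32 to 5.34% in the other libraries, and its TPM values below were rescaled without these genes. This library listed 26609 gene IDs at 0, and a gene at 0 there is given as listed at 0 without a fold difference. The epithelial marker TTR had 238565 TPM in male choroid plexus, 285892 TPM in female choroid plexus and 389655 TPM in the FACS library. Of 11 epithelial markers, the TPM of 3 was higher in the sorted cells than in male choroid plexus. Of 16 listed immune cell markers 10 had a gene name, and their summed TPM was 854 in male choroid plexus, 555 in female choroid plexus and 4644 in the FACS library. The summed TPM in the FACS library was 5.44 times the male value for immune markers, 1.44 times for 8 named endothelial markers and 1.10 times for 5 named mural and fibroblast markers. For the 11 epithelial markers the sum was 1.56 times the male value, and most of that sum was TTR. By gene, the FACS library was higher for 9 of the 10 immune, 5 of the 8 endothelial and 3 of the 5 mural and fibroblast markers. None of the named immune, endothelial, mural and fibroblast markers was at 0 in a choroid plexus library.

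In male choroid plexus, the 36 genes together had 185 TPM, which was 6.05% of the TPM of all 107 listed channels. The sum was 184 TPM in female choroid plexus and 189 TPM in the FACS library. Most of it came from few genes, since 5 of the 36 were at or above 10 TPM in each of these 3 libraries and the median gene had 1.60 TPM in male choroid plexus, 1.20 TPM in female choroid plexus and 0.985 TPM in the FACS library. The first 7 genes stood in the same order in all 3 libraries, namely ORAI1, P2RX6, ORAI3, GRIK5, ORAI2, HCN2 and P2RX4. In male choroid plexus each of these 7 exceeded the next of the 7 beyond counting error, while P2RX4 and the gene below it, GABRG3, did not differ (ratio 1.03, interval 0.854 to 1.25). Of the 33 pairs of neighbours in the male order, 9 had a counting interval of the ratio above 1, so the order of the lower genes was mostly not resolved. Across the 36 genes, Spearman's rho with the male levels was 0.976 for female choroid plexus and 0.797 for the FACS library, as a description of genes that share the same libraries.

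**Figure D1:**
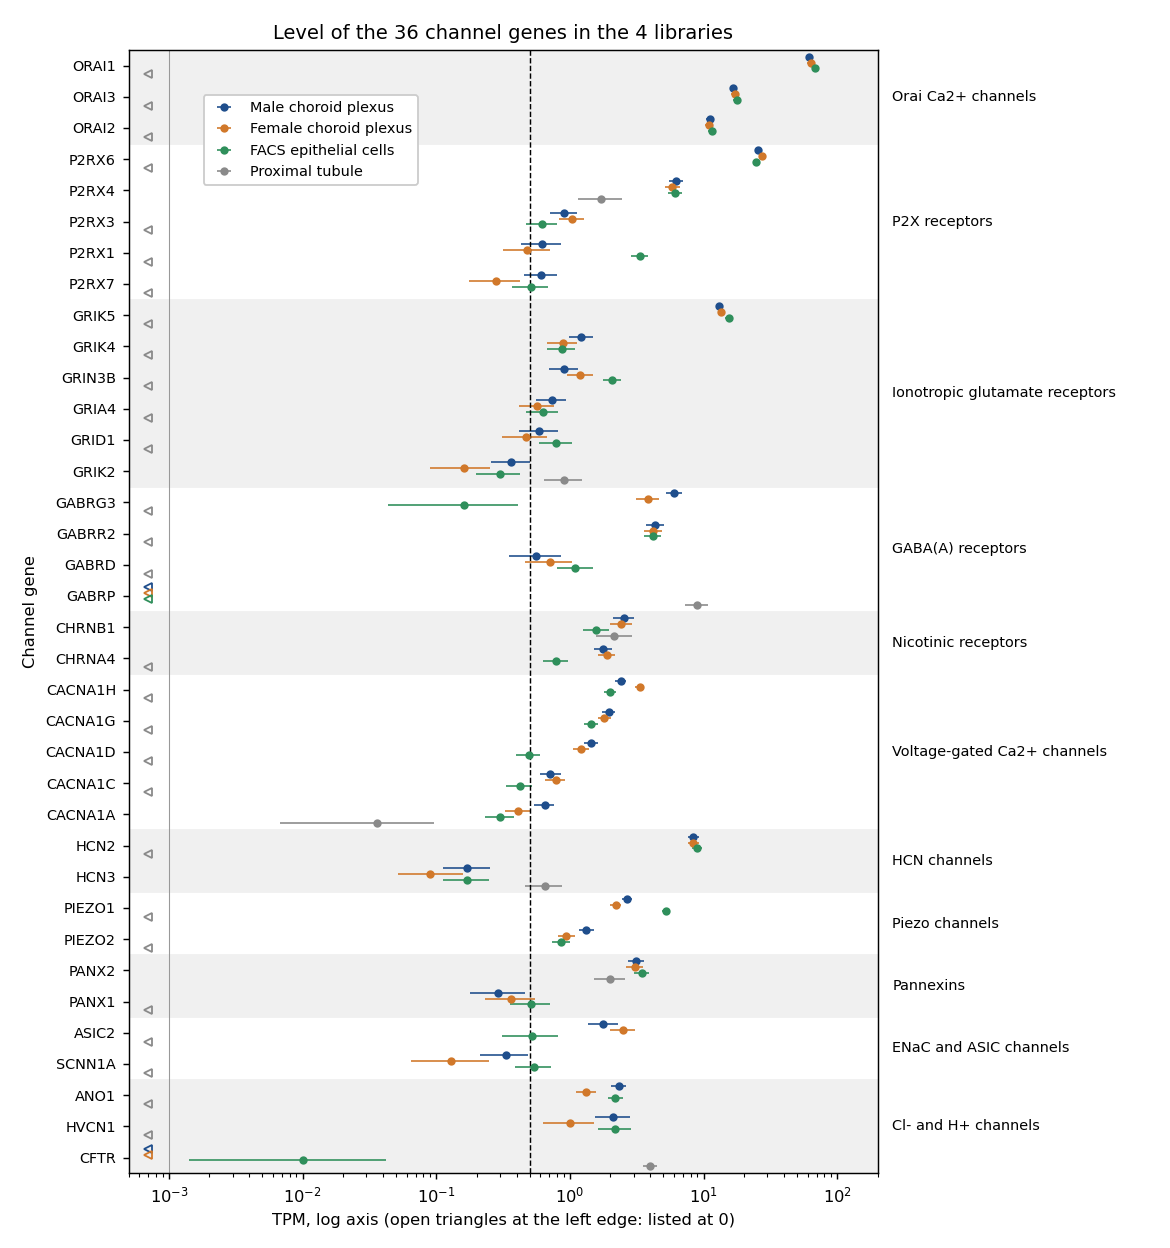
TPM of the 36 channel genes (horizontal log axis) in each of the 4 libraries, grouped by family, with the 95% Poisson interval of the counts as bars, the 0.5 TPM cut-off as a dashed line and genes listed at 0 as open triangles left of the grey line. ORAI1 was the highest gene in the 3 choroid plexus libraries at 61.9 to 67.8 TPM, and GABRG3 ran from 6.03 TPM in male choroid plexus to 0.16 TPM in the FACS library.

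The starts of ORAI1 and P2RX6, the highest of the 36 genes, and of GABRG3, whose ratio between the FACS library and male choroid plexus lay furthest from 1, are shown for context. Each sequence is the 250 bases before the gene's start from RefSeq in build GRCr8, read 5′ to 3′ on the gene's strand, which is the minus strand in each case. Capitals mark the dinucleotide CG, which reads the same on both strands.
ORAI1 at chr12:39209031-39209280: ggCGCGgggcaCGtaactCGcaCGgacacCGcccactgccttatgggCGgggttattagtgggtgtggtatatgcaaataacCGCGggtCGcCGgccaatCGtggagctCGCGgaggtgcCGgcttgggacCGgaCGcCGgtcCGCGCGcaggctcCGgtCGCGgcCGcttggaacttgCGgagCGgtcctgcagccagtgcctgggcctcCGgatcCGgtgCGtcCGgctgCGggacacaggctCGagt
P2RX6 at chr11:96954204-96954453: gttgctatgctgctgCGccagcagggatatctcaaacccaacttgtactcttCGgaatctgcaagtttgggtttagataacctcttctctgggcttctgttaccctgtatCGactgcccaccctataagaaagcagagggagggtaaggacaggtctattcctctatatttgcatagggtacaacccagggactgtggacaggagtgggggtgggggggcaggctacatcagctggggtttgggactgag
GABRG3 at chr1:117382458-117382707: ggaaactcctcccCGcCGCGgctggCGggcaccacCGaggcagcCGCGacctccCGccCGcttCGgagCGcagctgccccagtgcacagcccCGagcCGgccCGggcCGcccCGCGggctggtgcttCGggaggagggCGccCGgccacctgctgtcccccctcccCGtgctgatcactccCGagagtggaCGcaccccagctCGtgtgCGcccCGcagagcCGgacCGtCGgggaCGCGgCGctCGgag
The stretches before ORAI1 and GABRG3 each held 33 CG, a number reached by 4.55% of 21840 protein-coding genes over the same length, and that before P2RX6 held 3 CG, a number reached by 75.8% of them. The highest genes of the group thus included starts with many and with few CG. Among the 24 of the 36 genes with a promoter in the table, the median was 14.5 CG, against 8 CG over all genes. These sequences are reference sequence and were not measured here.

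The Orai channels held the largest summed level of the 11 families, at 89.7 TPM in male choroid plexus, 91.2 TPM in female choroid plexus and 97.0 TPM in the FACS library. ORAI1 (ENSRNOG00000001336), the pore subunit of the classical store-operated Ca2+ current, had 61.9 TPM in male choroid plexus (interval 58.6 to 65.4), 63.2 TPM in female choroid plexus and 67.8 TPM in the FACS library. It ranked 6th, 6th and 5th among the listed channels of these libraries and held 69.0 to 69.9% of the TPM of its family. Of the counts of the family, which do not take length into account, it held 38.0 to 38.7%, and its effective length in male choroid plexus was 850 bases, against 2528 bases for ORAI3 and 3938 bases for ORAI2. ORAI3, a relative that can join mixed Orai channels, had 16.6, 17.1 and 17.7 TPM in the same libraries. ORAI2 had 11.2, 10.9 and 11.5 TPM. In TPM, the order ORAI1 over ORAI3 over ORAI2 was the same in the 3 libraries, with ORAI1 at 3.72 times ORAI3 (interval 3.43 to 4.04) and ORAI3 at 1.49 times ORAI2 (interval 1.37 to 1.63) in male choroid plexus. By counts ORAI1 also led, with 1290, 1289 and 1472, but ORAI2 stood above ORAI3 in male choroid plexus, with 1077 and 1031 counts, and in the FACS library, with 1173 and 1156 counts. All 3 genes were listed at 0 in the proximal tubule library.

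Of the partners of the Orai channels, the Ca2+ sensors of the endoplasmic reticulum STIM1 and STIM2 were transcribed beside them. STIM1 had 82.0 TPM in male choroid plexus, 73.0 TPM in female choroid plexus and 69.1 TPM in the FACS library. STIM2 had 119, 99.2 and 92.1 TPM, so that both sensors were above ORAI1 in each choroid plexus library. SARAF, which dampens store-operated Ca2+ entry, had 280, 296 and 281 TPM. None of the 3 partners was called higher or lower in the FACS library against male choroid plexus, by the rule given further down. Of all genes 10.9% were called higher and 6.03% lower, so 0 calls among 3 genes is near these shares.

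Of the ATP-gated P2X receptors, P2RX6 (ENSRNOG00000001873) dominated with 25.5 TPM in male choroid plexus (interval 24.1 to 27.0), 27.5 TPM in female choroid plexus and 24.8 TPM in the FACS library. This was 75.3%, 78.3% and 70.1% of the TPM of the 5 listed P2X genes. The P2X6 subunit is known to form functional channels poorly by itself and to join other P2X subunits. P2RX4, which forms an ATP-gated channel common in epithelia and macrophages, had 6.22, 5.83 and 6.10 TPM, and P2RX6 was at 4.10 times P2RX4 in male choroid plexus (interval 3.58 to 4.71). P2RX6 and P2RX4 are overlapped in the annotation by the protein-coding genes Lrrc74b and Camkk2. The other P2X genes were near the cut-off in the whole tissue. P2RX3, a receptor of sensory neurons, had 0.90, 1.03 and 0.62 TPM, and P2RX7, known from immune cells, had 0.61, 0.28 and 0.51 TPM. P2RX1, known from platelets, smooth muscle and immune cells, had 0.62 TPM in male choroid plexus and 0.48 TPM in female choroid plexus but 3.32 TPM in the FACS library.

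Of 7 G protein-coupled receptors for nucleotides, 5 could be named in the files. P2RY4 had 5.95 TPM in male choroid plexus, 3.68 TPM in female choroid plexus and 1.51 TPM in the FACS library, so it was lowest in the sorted cells. P2RY6 had 2.46, 1.40 and 5.40 TPM, P2RY12, a marker of microglia that is also in the list of immune markers, had 1.21, 1.10 and 4.22 TPM, and P2RY14 had 0.92, 0.40 and 4.26 TPM, with the FACS library highest for each of them. P2RY2 had 0.83, 0.76 and 0.92 TPM. By the rule given further down, P2RY6, P2RY12 and P2RY14 were 3 of the 5 called higher in the FACS library against male choroid plexus, where 10.9% of all genes were called higher, and 0 were called lower, against 6.03% of all genes.

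Of the 6 ionotropic glutamate receptor genes, GRIK5 (ENSRNOG00000020310) held 77.5% of the TPM in male choroid plexus, 80.6% in female choroid plexus and 76.7% in the FACS library. It had 13.1 TPM in male choroid plexus (interval 12.3 to 13.9), 13.6 TPM in female choroid plexus and 15.4 TPM in the FACS library. GRIK5 encodes a high-affinity kainate receptor subunit that needs a partner such as GRIK2 to form a channel. GRIK2 had 0.36 TPM from 38 counts in male choroid plexus, 0.16 TPM from 16 counts in female choroid plexus and 0.30 TPM from 29 counts in the FACS library, below the cut-off in all 3. GRIK2 came into the group through the tubule list alone. Its level under 0.5 TPM in male choroid plexus and the FACS library was therefore part of its choice. In male choroid plexus GRIK5 was at 36.4 times GRIK2 (interval 26.3 to 51.7), a gap that this choice had a part in. None of the 12 listed glutamate receptor partners, GRIK1 and GRIK3 among them, had a gene name, so their levels are not given. GRIK4, the other high-affinity kainate subunit, had 1.21, 0.88 and 0.87 TPM. GRIN3B, a glycine-binding NMDA receptor subunit that the protein-coding gene Tmem259 overlaps, had 0.90, 1.19 and 2.07 TPM. GRIA4, an AMPA receptor subunit, had 0.73, 0.57 and 0.63 TPM, and GRID1, a delta receptor, had 0.59, 0.47 and 0.79 TPM.

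Of the 4 GABA(A) receptor genes, GABRG3 and GABRR2 led in the whole tissue. GABRG3 (ENSRNOG00000014862), the gamma-3 subunit, had 6.03 TPM from 199 counts in male choroid plexus, 3.84 TPM from 102 counts in female choroid plexus and 0.16 TPM from 4 counts in the FACS library. It was highest in the male tissue and nearly absent from the sorted cells. Its TPM in male choroid plexus was 37.7 times that in the FACS library, and the reverse ratio was 0.0265 (interval 0.00716 to 0.0690). The effective length behind the TPM, which depends on which transcripts were taken to be present, was 1347, 1102 and 959 bases in the same order, so the counts differed more than the TPM. In the annotation 3 genes overlap GABRG3, which are pseudogenes and a long non-coding RNA. GABRR2, the rho-2 subunit that can form channels from rho subunits alone, had 4.32, 4.19 and 4.16 TPM and was level over the 3 libraries. GABRD, the delta subunit of receptors outside synapses, had 0.56, 0.71 and 1.10 TPM. GABRG3 led the family in male choroid plexus with 55.3% of its TPM, and GABRR2 led in the FACS library with 76.8%. Of 15 listed GABA(A) partners and trafficking genes 3 could be named, GABARAP and its relatives GABARAPL1 and GABARAPL2. By the rule given further down, 0 of the 3 were called in the FACS library against male choroid plexus. Of all genes 10.9% were called higher and 6.03% lower, and 3 genes are too few to tell apart from these shares. Outside the channels, GABBR1, a subunit of the metabotropic GABA(B) receptor, had 31.9, 36.9 and 43.8 TPM, above any GABA(A) gene in each of these libraries. By the same rule GABBR1 was called higher in the FACS library, as 1 of 2 named metabotropic receptors.

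Both nicotinic receptor genes were above the cut-off in the 3 choroid plexus libraries. CHRNB1, the beta subunit of the muscle receptor, had 2.53, 2.43 and 1.58 TPM in male choroid plexus, female choroid plexus and the FACS library. CHRNA4, the alpha subunit of the main receptor of the brain, had 1.77, 1.88 and 0.79 TPM. Both were lower in the FACS library than in either whole tissue, and their summed TPM was 4.30, 4.31 and 2.37. The ratio to the male value was 0.625 for CHRNB1 and 0.446 for CHRNA4, against a median of 0.620 over all genes. By counts, which do not take length into account, CHRNA4 led in all 3 libraries with 51.5 to 62.3% of the pair. The protein-coding genes Zbtb4 and Col20a1 overlap them in the annotation. The muscarinic receptor gene CHRM1 had 1.20, 1.45 and 0.42 TPM.

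The 5 pore-forming subunits of voltage-gated Ca2+ channels were low in TPM, with 7.13 TPM in all in male choroid plexus, 7.54 TPM in female choroid plexus and 4.65 TPM in the FACS library. They are long genes, and the summed counts were 1315, 1355 and 905. CACNA1H, a T-type channel that opens at low voltage, had 2.39 TPM in male choroid plexus (interval 2.17 to 2.62), 3.33 TPM in female choroid plexus and 2.0 TPM in the FACS library. CACNA1G, another T-type channel, had 1.95, 1.81 and 1.44 TPM, so T-type channels led the family in all 3. The L-type channels CACNA1D and CACNA1C had 1.43, 1.21 and 0.49 TPM and 0.71, 0.78 and 0.42 TPM. CACNA1A, the P/Q-type channel of nerve terminals, had 0.65, 0.41 and 0.30 TPM. For each of the 5 the FACS value was below both whole-tissue values, with a ratio to the male value of 0.343 to 0.837. The median ratio of all genes was 0.620. The intervals of CACNA1H and CACNA1G lay above it, that of CACNA1D lay below it, and those of CACNA1C and CACNA1A held it. None of the 8 listed auxiliary subunits could be named in the files.

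HCN2, a cation channel opened by hyperpolarisation, had 8.38 TPM in male choroid plexus (interval 7.64 to 9.18), 8.39 TPM in female choroid plexus and 9.00 TPM in the FACS library, which did not separate beyond counting error. HCN3 was far lower at 0.17, 0.09 and 0.17 TPM, from 26, 14 and 27 counts. As HCN3 came into the group through the tubule list alone, a level under 0.5 TPM in male choroid plexus and the FACS library was fixed. The mechanosensitive channel PIEZO1, known from endothelium, red cells and immune cells, had 2.68, 2.20 and 5.20 TPM, and the FACS library was the highest. PIEZO2, the touch receptor of sensory neurons, had 1.33, 0.94 and 0.86 TPM. PIEZO1 was thus at 2.02 times PIEZO2 in male choroid plexus (interval 1.73 to 2.35) and at 6.05 times PIEZO2 in the FACS library (interval 5.15 to 7.13). Of the pannexins, PANX2 had 3.12, 3.05 and 3.46 TPM and PANX1, the ATP-releasing form of most tissues, had 0.29, 0.36 and 0.51 TPM.

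Of the sodium channels, the acid-sensing ASIC2 had 1.78 TPM from 62 counts in male choroid plexus, 2.49 TPM from 85 counts in female choroid plexus and 0.52 TPM from 19 counts in the FACS library. SCNN1A, the alpha subunit of the epithelial Na+ channel, had 0.33, 0.13 and 0.54 TPM, from 25, 10 and 43 counts. ASIC2 was lowest in the sorted cells, while the ratio of SCNN1A between the sorted cells and male choroid plexus, 1.64, had an interval that held 1 (0.977 to 2.80). SCNN1A and PANX1 came into the group through the list for sorted cells, so passing 0.5 TPM there and not in male choroid plexus was part of their choice. ANO1, a Ca2+-activated Cl- channel, had 2.33, 1.32 and 2.18 TPM, and the proton channel HVCN1, known from phagocytes, had 2.10, 1.0 and 2.18 TPM. For both the female value was the lowest of the 3. CFTR, the cAMP-regulated Cl- channel, was listed at 0 in male and female choroid plexus, which allows up to 0.0186 TPM at the male depth for a floor of 3 counts, and had 2 counts in the FACS library. GABRP, the pi subunit of the GABA(A) receptor, was listed at 0 in all 3. Both CFTR and GABRP came into the group through the tubule list alone. A level under 0.5 TPM in male choroid plexus and the FACS library was therefore part of their choice.

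**Figure D2:**
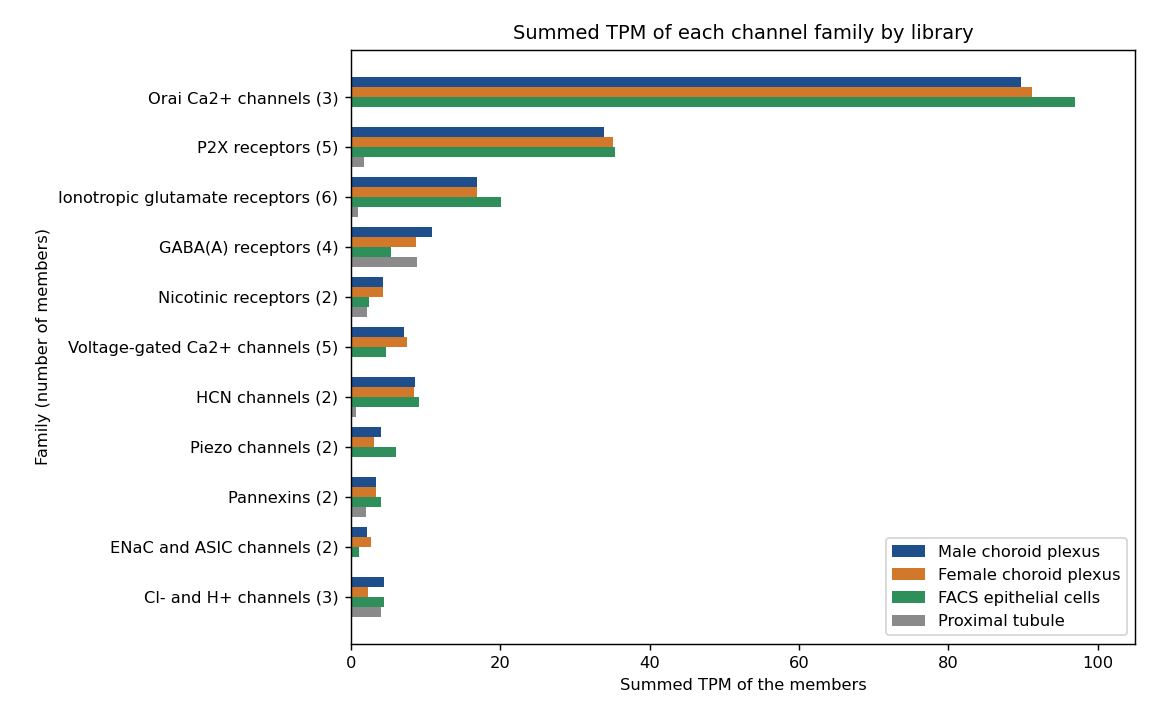
Summed TPM of the members of each channel family (horizontal axis, from 0) in the 4 libraries, with the number of members in brackets. The Orai channels reached 89.7 to 97.0 TPM in the 3 choroid plexus libraries, and the P2X receptors came next with 33.9 to 35.3 TPM.

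The comparison of the FACS library with male choroid plexus asked how far the channels of the whole tissue were also found in the sorted epithelial cells. P2RX1, PIEZO1, GRIN3B and GABRD were called higher in the sorted cells and GABRG3 was called lower. A gene was called when its log2 ratio of TPM + 1 lay at least 1 from the median of all genes that reached 0.5 TPM in at least 1 of both libraries, and ratios on this scale understate the change of low genes. By this rule 4 of 32 members were called higher, or 12.5%, against 10.9% of all 14024 genes, and 1 of 32 was called lower, or 3.12%, against 6.03% of all genes. The shares were thus near those of all genes. The median log2 ratio was -0.04 for the members and -0.58 for all genes, and 28 of 32 members lay above the median of all genes. Without centring on that median, 1 member was called higher and 1 lower, against 4.61% and 25.5% of all genes. The choice from lists cut at 0.5 TPM in these libraries had a part in which members entered this count.

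P2RX1 had 34 counts in male choroid plexus and 193 in the FACS library, and its TPM ratio was 5.35 (interval 3.70 to 7.96). PIEZO1, with 521 and 1072 counts, had a ratio of 1.94 (interval 1.75 to 2.16), and the protein-coding gene Ctu2 overlaps it in the annotation. GRIN3B had a ratio of 2.30 (interval 1.71 to 3.13) and GABRD, with 21 and 43 counts, a ratio of 1.96 (interval 1.14 to 3.48). Relative to the median of all genes, their log2 ratios were 2.0, 1.33, 1.27 and 1.01, and that of GABRG3 was -2.02. GABRD was therefore just past the threshold of 1, and PANX1, at 0.81, was the nearest member under it. For PANX1 a higher level in the sorted cells was part of its choice. P2RX1 and PIEZO1 are known from blood and vessel cells. P2RX4, P2RX7 and HVCN1, described above as known from macrophages, immune cells or phagocytes, were not called. Their TPM ratios were 0.981, 0.836 and 1.04, each with an interval that held 1. In the same library 9 of the 10 named immune markers and 2 of 8 endothelial markers were called higher. So were 1 of 5 mural and fibroblast and 1 of 11 epithelial markers, against 10.9% of all genes. The part of blood and vessel cells in the values of these members was not tested. In bulk RNA a smaller number of cells of a type and less RNA per cell cannot be told apart. Effects of the sorting, of the digestion and of the different pool of rats cannot be told apart either.

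Of the 34 members with counts in both libraries, the counting interval of the TPM ratio lay above 1 for 6 members, below 1 for 12 and held 1 for 16. The 6 were the called genes P2RX1, PIEZO1, GRIN3B and GABRD together with GRIK5 at 1.17 (interval 1.08 to 1.27) and ORAI1 at 1.10 (interval 1.02 to 1.18). The 12 included all 5 voltage-gated Ca2+ channels, both nicotinic genes, PIEZO2, P2RX3, GRIK4, ASIC2 and GABRG3. Set against 0.620, the median TPM ratio of the 13630 genes with counts in both libraries that reached the cut-off in at least 1 of them, the interval lay above for 20 members and below for 4. These 4 were GABRG3, CACNA1D with a ratio of 0.343 (interval 0.269 to 0.434), ASIC2 with a ratio of 0.292 (interval 0.165 to 0.495) and CHRNA4 with a ratio of 0.446 (interval 0.342 to 0.579). The abundant members ORAI1, ORAI3, ORAI2, P2RX6, GRIK5, HCN2 and P2RX4 had TPM ratios between 0.971 and 1.17. With female choroid plexus as the reference, a comparison added after the data had been seen, P2RX1, PIEZO1 and HVCN1 were called higher (3 of 31 members, against 10.6% of all genes) and GABRG3 lower (1 of 31, against 4.35%).

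**Figure D3:**
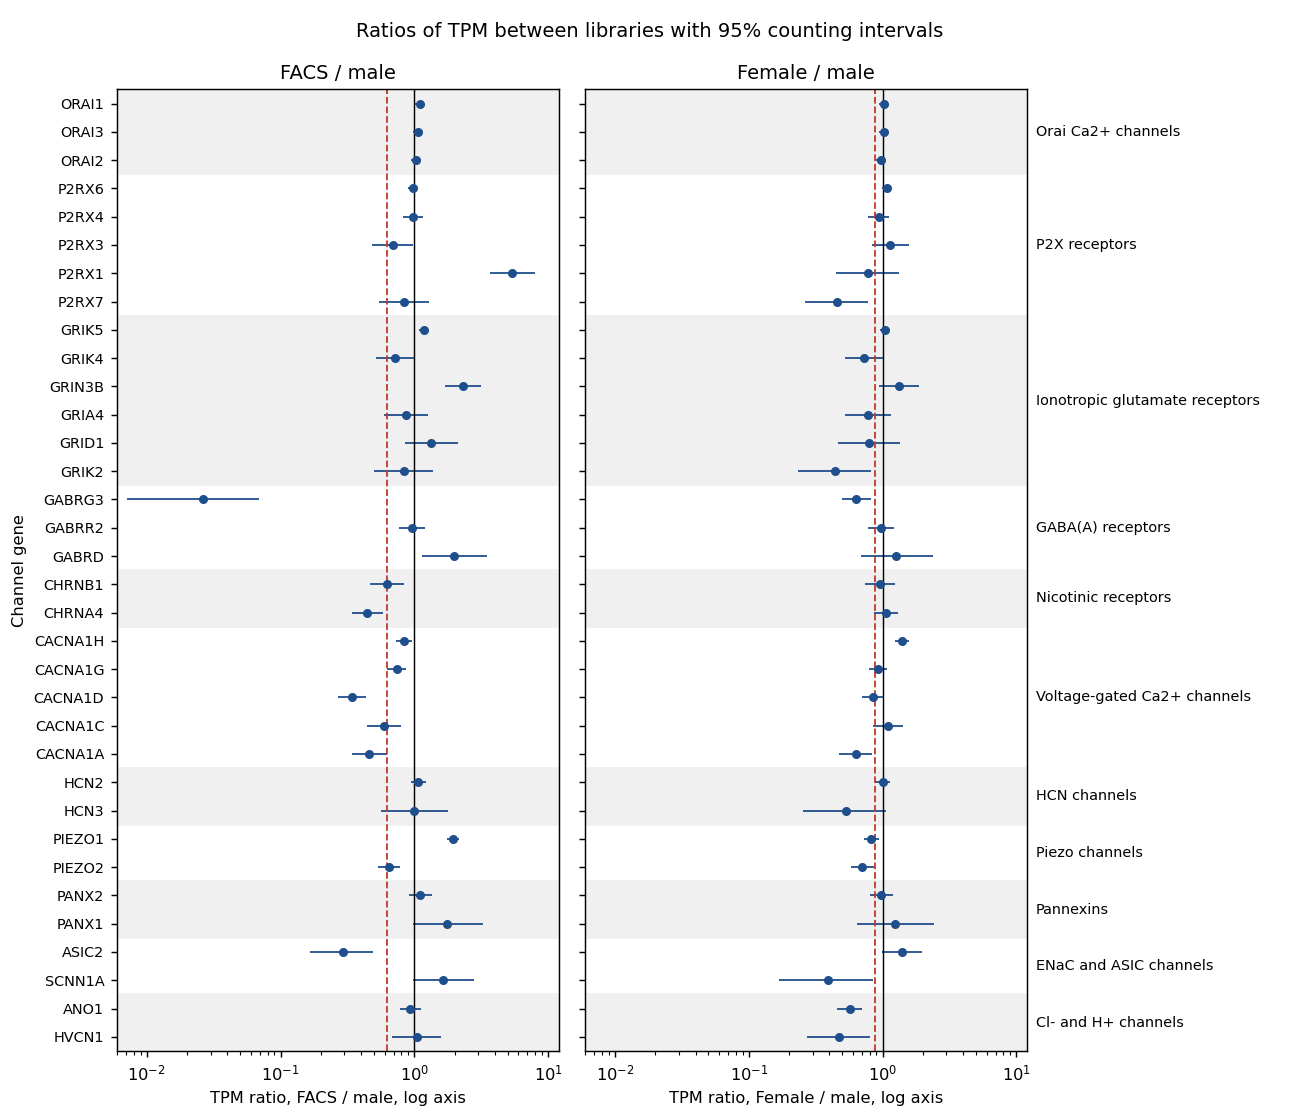
TPM ratio (horizontal log axis) of the FACS library to male choroid plexus on the left and of female to male choroid plexus on the right for the 34 members with counts, with 95% counting intervals, a line at 1 and a dashed line at the median ratio of all genes (0.620 and 0.883). P2RX1 at 5.35 and GABRG3 at 0.0265 stand at the ends on the left, while the female ratios run from 0.394 to 1.40.

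Female and male choroid plexus were compared to see whether the sexes differed in these channels. Of the 30 members that reached the cut-off in at least 1 of these libraries, 0 were called higher and 0 lower, against 0.62% of 13869 genes called higher and 0.757% called lower. The median log2 ratio was -0.04 for the members and -0.16 for all genes. Without a call, the counting interval of the TPM ratio still lay above 1 for 1 member, below 1 for 9 and held 1 for 24. Set against 0.883, the median TPM ratio of all genes, the interval lay above for 8 members and below for 8, so the lean to lower female values was not present on that scale. CACNA1H was the member above 1, with 445 counts in the male and 609 in the female library and a ratio of 1.39 (interval 1.23 to 1.58). ANO1 had 240 and 133 counts and a ratio of 0.567 (interval 0.455 to 0.703), GABRG3 a ratio of 0.637 (interval 0.497 to 0.812) and PIEZO1 a ratio of 0.821 (interval 0.720 to 0.935). The rest of the 9 were P2RX7, HVCN1, GRIK2, SCNN1A, CACNA1A and PIEZO2, with ratios of 0.394 to 0.707. The summed TPM of the immune markers in female choroid plexus was 0.650 times that in male choroid plexus, that of the endothelial markers 0.837 times and that of the mural and fibroblast markers 0.760 times, and the part of these cells in the values of the members was not tested. The 7 highest members had ratios between 0.937 and 1.08, each with an interval that held 1. Differences between the sexes cannot be told apart from differences between the pools.

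In the proximal tubule library 28 of the 36 members were listed at 0 and 7 were at or above 0.5 TPM. Of all 32883 gene IDs, 26609 were listed at 0 there. GABRP had the highest level, with 8.86 TPM from 101 counts (interval 7.21 to 10.8). It was followed by CFTR with 3.98 TPM from 275 counts (interval 3.54 to 4.50), CHRNB1 with 2.15 TPM, PANX2 with 2.01 TPM, P2RX4 with 1.72 TPM, GRIK2 with 0.897 TPM and HCN3 with 0.646 TPM. CACNA1A had 3 counts. GABRP and CFTR had no counts in male choroid plexus, and against the floor of 3 counts in that library they were at least 73.5-fold and at least 196-fold higher in the tubules. HCN3 and GRIK2 were also higher in the tubules, at 3.48 times (interval 2.08 to 5.92) and 2.28 times (interval 1.43 to 3.66) the male choroid plexus. The protein-coding gene Pklr overlaps HCN3 in the annotation, and 2 pseudogenes overlap GRIK2. P2RX4 and PANX2 were lower, at 0.254 times (interval 0.168 to 0.371) and 0.590 times (interval 0.430 to 0.798), and the interval of CHRNB1 held 1, at 0.779 times (interval 0.541 to 1.10). In log2 ratios of TPM + 1, P2RX4, PANX2 and CHRNB1 lay 0.754, 1.72 and 2.02 above the median of all genes. That median was so low that many members listed at 0 in the tubules also lay above it. The TPM ratios hold for values without the mitochondrially encoded genes. In the deposited TPM, which include them, GRIK2 had 0.25 TPM in the tubules and 0.36 TPM in male choroid plexus, which turns its direction, HCN3 had 0.18 and 0.17 TPM, and CHRNB1 had 0.60 and 2.53 TPM. GABRP, CFTR, GRIK2 and HCN3 came into the group through the tubule list, so a higher level in the tubules was part of their choice.

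The genes listed at 0 in the tubules are not shown to be absent. Of the 4638 genes with 1000 to 9999 counts in male choroid plexus, 43.7% were listed at 0 in the proximal tubule library, against 0.0431% in the female and 0.108% in the FACS library. Among genes with fewer male counts, the share at 0 in the tubules was larger. It was 61.4% of 6132 genes with 100 to 999 counts and 77.8% of 1720 genes with 30 to 99 counts. The proximal tubule library also held few genes with low counts, 450 with fewer than 30, against 2930 to 4005 in the other libraries. ORAI1, with 1290 counts in male choroid plexus, was listed at 0 there as were 2 other Orai genes and STIM1, while STIM2 and SARAF had 64 and 95 counts.

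**Figure D4:**
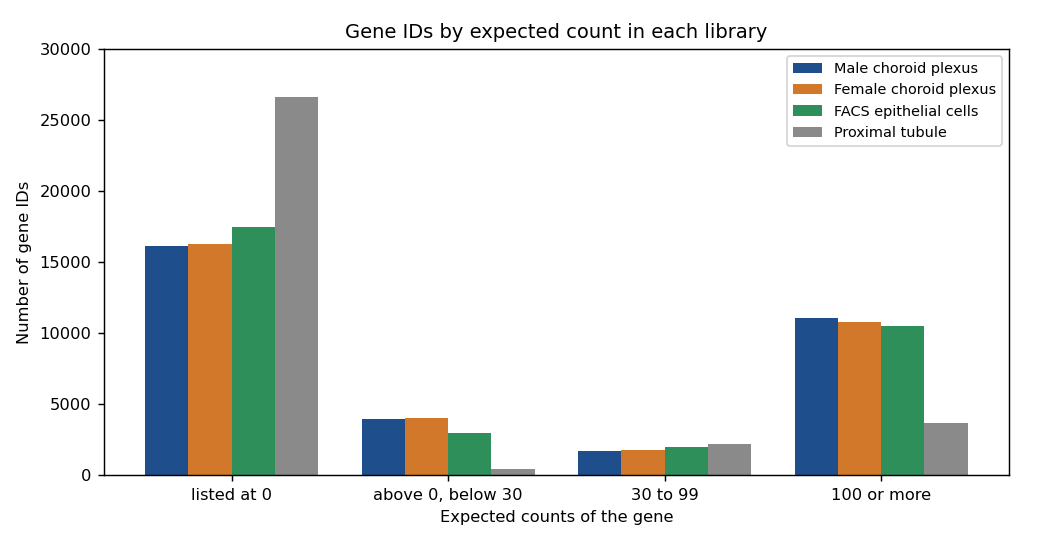
Number of gene IDs (vertical axis, from 0) by expected count in each library. In the proximal tubule library 26609 IDs were listed at 0 and 450 had fewer than 30 counts, against 16163 to 17492 and 2930 to 4005 in the other 3 libraries.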

How the data were processed

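The authors sequenced the RNA as paired-end reads and aligned them by STAR 2.7.2a. The genome was Rnor_6.0 with Ensembl release 103, and RSEM 1.3.3 gave the values per gene. They deposited for each gene ID and library an expected count, which is an estimate that need not be whole, a TPM, scaled to sum to 1000000, and an effective length. The deposited FPKM values were not used. Strandedness is not given in the sources used here, so reads of overlapping genes could not be assigned by strand. Of the 36 members, 24 overlap another RefSeq gene, 12 of them a protein-coding one. Beside the members for which it is given above, protein-coding genes overlap P2RX3, CACNA1H, CACNA1C, ASIC2 and HVCN1.

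Members are all channels of the study's lists outside the 12 excluded name prefixes, and all of them are named, with partner and marker lists beside them. The members and lists were chosen with earlier results of these data known. Names came from the study's lists, which name 2452 of 32883 IDs. Of the partner lists, 0 genes of 8 Ca2+ channel subunits, 12 glutamate receptor partners, 2 ENaC subunits and 4 nicotinic partners had a name. Of 8 proximal tubule markers, the summed TPM was 11296 in the proximal tubule library, 20.1 in male choroid plexus, 18.3 in female choroid plexus and 13.8 in the FACS library.

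Depth was 23873318 to 28324976 expected counts per library. After a pseudocount of 1 was added to each TPM, log2 ratios were taken over genes that reached 0.5 TPM in at least 1 library, centred on their median and called at 1. TPM ratios have exact Clopper-Pearson and levels exact Poisson 95% intervals, and shares have Wilson intervals, all covering counting error alone. The log2 ratios and the intervals of ratios were tested on simulated Poisson counts. That test left out the pseudocount of 1, so it did not cover how the rule calls low genes. The software was Python 3.11.15, numpy 2.4.6, pandas 2.3.3, scipy 1.17.1 and matplotlib 3.10.9. Alternatives were other cut-offs, pseudocounts, filters, counts in place of TPM, and scalings. Centred calls for the proximal tubule were left out, because the median of all genes fell so low that a member listed at 0 would have been called higher.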

Additional observations from a re-analysis of the deposited data

How the results depend on the processing

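No paired analysis was possible because each condition has 1 library. With a cut-off of 5 TPM, 8 members were detected in male choroid plexus, 8 in the sorted cells, 7 in female choroid plexus and 1 in the proximal tubules, and with 1 TPM 18 were detected in the FACS library. With mitochondrially encoded genes kept, 4 were detected in the proximal tubule library, and the TPM of GRIK2 there was below that in male choroid plexus. The 4 members called higher in the FACS library against male choroid plexus became 7 with a pseudocount of 0.1 TPM, where GRID1, PANX1 and SCNN1A joined them, 1 without centring and 1 without a filter on low values, and in the latter 2 settings P2RX1 alone was left. The share of all genes called higher moved as well, from 10.9% to 14.7%, 4.61% and 1.97%, in that order. PANX1 and SCNN1A came into the group through the list for sorted cells and not that for male choroid plexus. Their higher level in the FACS library was therefore part of their choice. Without the filter, where 32883 IDs entered, the median of the members relative to all genes went from 0.54 to -0.0322. GABRG3 was called lower under each of these 8 settings, which also included a pseudocount of 0.5 TPM, a filter on the mean, counts in place of TPM and removal of the 10 highest or the mitochondrially encoded genes, and with female choroid plexus as the reference. No member was called between female and male choroid plexus under any of the 8 settings. No called member changed direction, and 448 of 523 log2 ratios of single members moved by less than 0.5 of the width of their counting interval. Taking counts in place of TPM changed the leading gene for the nicotinic receptors in 3 libraries, among 41 families and libraries with counts. No calls were made against the proximal tubule, and the median of that comparison was not run under these settings. Depth limits the members under 30 counts, such as HCN3, SCNN1A and GABRD, and 1 library per condition limits every difference.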

Other observations

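Some members lie close together in the genome. In the RefSeq annotation of build GRCr8, P2RX4 and P2RX7 are next to each other with 0 protein-coding genes between them, and ORAI1 is separated from P2RX4 by 4 protein-coding genes and P2RX7 from HVCN1 by 10. The levels of these neighbours in male choroid plexus differed widely, with 61.9 TPM for ORAI1, 6.22 TPM for P2RX4, 0.61 TPM for P2RX7 and 2.10 TPM for HVCN1. GRIN3B and HCN2 are separated by 17 protein-coding genes and had 0.90 and 8.38 TPM.

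Of the 24 members with a RefSeq promoter, 16 held 10 or more CG in the 250 bases before the start, or 66.7%, against 46.5% of all 21840 protein-coding genes. CACNA1D held the most, 56, and had 1.43 TPM in male choroid plexus, while GABRR2 held 2 and had 4.32 TPM.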
